A study of Mus musculus with 6 samples.

Results

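The genes followed here are 10 of the 41388 in the tables, chemokine and cytokine genes that neutrophils are known to express: the CXC chemokines Cxcl1, Cxcl2 and Cxcl3, the CC chemokines Ccl3, Ccl4 and Ccl6, and the cytokines Tnf, Tnfsf14, Osm and Csf1. The list of names was given, and each symbol matched 1 Ensembl identifier. All cells were bone marrow neutrophils of C57BL/6 mice that carried 250 nM of the membrane potential dye DIBAC4(3) and received 100 nM ionomycin, an ionophore that raises cytosolic calcium. From 2 to 4 minutes after that addition 20000 cells were sorted from each of 2 populations, depolarized and polarized, and each was sequenced in 3 libraries that form 3 biological pairs, called A, B and C here. Both populations had therefore received dye and ionomycin, and no unstimulated sample was analysed here. The sources used here do not state the age of the mice or whether a pair came from 1 mouse or a pool, so the spread between pairs may be partly technical.

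Chemokines are small secreted proteins that bind G protein-coupled receptors on leukocytes and direct their movement. Those of the CXC class with a glutamate-leucine-arginine motif act on the receptor CXCR2 and recruit neutrophils, and CC chemokines such as CCL3 and CCL4 recruit monocytes, T cells and neutrophils. Neutrophils store or make a restricted set of such ligands. Many of these genes are immediate targets of the transcription factor NF-kB, and their mRNAs are short-lived because decay factors such as tristetraprolin (Zfp36) bind them.

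Library totals ran from 16904969 to 20381489 counts, so 3 counts, used as the detection floor, correspond to 0.147 to 0.177 CPM (counts scaled to the library total) in a single library. Intervals and floors cover counting error only. Of 13 neutrophil markers 13 passed the low-count filter. Since 10 of 12 macrophage and 8 of 9 eosinophil markers passed too, passing does not identify a cell type. By level the neutrophil markers led. Together they took 200231 to 247348 CPM of polarized and 172021 to 195437 CPM of depolarized libraries, led by S100a8, S100a9, Retnlg and Ngp, and the granule genes Camp and Ltf were called lower in depolarized cells. The next highest marker sums in any library were 1320 CPM (basophil and mast cell) and 1249.7 CPM (monocyte). Neutrophil precursor transcripts summed to 60.5 to 352 CPM when polarized and 12.2 to 27.2 CPM when depolarized, and 8 of 10 tested were called lower (Mpo, Elane, Prtn3, Ctsg, Ms4a3, Fcnb, Top2a and Cdk1). Over all 9971 tested genes 24 were called lower (edgeR adjusted p under 0.05). Among the libraries, the polarized one of pair C differed most from the rest, with the highest precursor level and a TMM scaling factor of 0.876 against 0.967 to 1.08 in the other 5, so a plain CPM ratio and a TMM-scaled difference can disagree in pair C. The title of the depolarized library of pair B carries another run label (run 1) than the other 5 (run 2), whose meaning the sources used here do not state. In bulk samples, fewer cells of a type and less RNA per cell cannot be told apart.

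The sorted neutrophils carried abundant mRNA for only some of these ligands. Ccl6 was by far the most abundant, Cxcl2, Osm, Ccl4, Ccl3 and Tnfsf14 lay at intermediate levels, Tnf and Csf1 were low, and Cxcl3 and Cxcl1 were near 0. None of the 9 genes that passed the low-count filter differed between depolarized and polarized cells by the edgeR quasi-likelihood test over all 9971 tested genes with the pairs as a block (adjusted p under 0.05), which called 0.321% of tested genes. DESeq2 with the block called none of the 9 either. Csf1, Ccl4 and Ccl3 had the largest fitted differences of the 9, 1.85-fold, 1.402-fold and 1.37-fold higher in depolarized cells. Their edgeR adjusted p was 0.247, 0.482 and 0.589. Each was higher in 3 of 3 pairs, as were 12.9% of all tested genes on the TMM scale and 18.3% in plain CPM.

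The sequences before the start sites of 4 members are printed because they hold the same short motif. RefSeq promoters (GRCm38.p6) matched 8 of the 10 members by symbol, all but Ccl4 and Osm. In the 250 bases before the start site, the NF-kB motif GGGNNTTTCC on either strand was found in Cxcl1, Cxcl2, Cxcl3 and Csf1, 4 of 8 members, and in 1.41% of 32851 promoter windows of this length. Cxcl1 and Cxcl2 held 2 matches each, and Cxcl3 and Csf1 held 1. The windows are chr5:90890995-90891244 (plus strand) for Cxcl1, chr5:90903649-90903898 (plus strand) for Cxcl2, chr5:90785851-90786100 (plus strand) for Cxcl3 and chr3:107760470-107760719 (minus strand) for Csf1, each read 5′ to 3′ on the gene's strand with the NF-kB match in capitals.
Cxcl1: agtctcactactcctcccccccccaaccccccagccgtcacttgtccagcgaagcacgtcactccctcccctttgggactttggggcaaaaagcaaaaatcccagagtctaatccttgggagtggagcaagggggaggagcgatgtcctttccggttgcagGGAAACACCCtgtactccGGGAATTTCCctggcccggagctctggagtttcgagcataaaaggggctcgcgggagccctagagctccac
Cxcl2: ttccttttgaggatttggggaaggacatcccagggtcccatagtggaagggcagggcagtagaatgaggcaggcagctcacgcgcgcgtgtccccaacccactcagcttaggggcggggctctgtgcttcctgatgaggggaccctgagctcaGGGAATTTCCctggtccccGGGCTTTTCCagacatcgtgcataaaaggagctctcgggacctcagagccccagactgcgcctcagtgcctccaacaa
Cxcl3: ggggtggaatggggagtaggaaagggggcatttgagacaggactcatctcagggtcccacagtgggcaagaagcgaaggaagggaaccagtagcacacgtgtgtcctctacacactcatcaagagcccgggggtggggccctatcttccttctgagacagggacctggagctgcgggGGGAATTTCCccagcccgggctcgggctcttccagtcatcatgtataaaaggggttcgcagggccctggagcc
Csf1: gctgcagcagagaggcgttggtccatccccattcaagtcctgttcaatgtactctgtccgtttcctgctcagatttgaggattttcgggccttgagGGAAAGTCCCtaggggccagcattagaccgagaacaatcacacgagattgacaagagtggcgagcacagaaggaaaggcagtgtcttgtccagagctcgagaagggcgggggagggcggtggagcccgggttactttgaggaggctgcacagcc
The run GGGAATTTCC stands in all 3 CXC genes, 71 bases before the start site in Cxcl1, 97 in Cxcl2 and 73 in Cxcl3, while Csf1 holds its match on the other strand, 154 bases before the start site. The NFAT motif GGAAA, which lies within every one of these NF-kB matches when read on the opposite strand, was found in 7 of 8 members (all but Ccl6) and in 55.6% of windows. The TATA box TATAAA was found in Cxcl3 and Tnf (12.4% of windows), and the AP-1 motif TGANTCA in Tnfsf14 alone (6.75% of windows). A match describes the letters of the window and says nothing of binding in these cells.

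Cxcl2, Cxcl1 and Cxcl3, neighbours on chromosome 5 that encode ligands of CXCR2, differed by orders of magnitude in transcript level. Cxcl2 (ENSMUSG00000058427, chromosome 5, 90903899 to 90905909 in GRCm38) had levels of 171, 127 and 149 CPM in polarized libraries (pairs A to C) against 169.6, 143 and 169.8 CPM in their depolarized partners. The groups overlapped, and the fitted log2 fold change (depolarized minus polarized) was 0.05 ± 0.17 (SE, edgeR adjusted p = 1). In 3 of 6 libraries, the depolarized ones of pairs A and C and the polarized one of pair A, Cxcl2 lay between 169 and 171 CPM.

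Cxcl1 (chromosome 5, 90891241 to 90893115) drew 3, 2 and 12 counts from polarized libraries (pairs A to C) and 2, 3 and 6 from depolarized ones. In 4 of 6 libraries it was at or under the floor of 3 counts, and the gene did not pass the filter and was not tested. Over the groups the 17 polarized and 11 depolarized counts gave a depolarized to polarized ratio of 0.641, whose 95% exact binomial interval ran from 0.272 to 1.451, so no difference could be detected at this depth. Per length, Cxcl2 exceeded Cxcl1 by 220-fold (polarized, pair C) to 1563-fold (depolarized, pair A). The windows printed above hold 2 NF-kB matches in each of these genes, and any relation of the matches to the transcript levels was not tested.

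Cxcl3 (chromosome 5, 90786103 to 90788086) stood at 0.673, 0.705 and 0.765 CPM in polarized libraries, on 40 counts in all. Its depolarized libraries held 0.883, 1.04 and 0.828 CPM, on 52 counts. In CPM the depolarized libraries all lay above the polarized ones, as did 7.28% of tested genes. After TMM scaling the groups overlapped and pair C turned to -0.10, and the fitted log2 fold change was 0.29 ± 0.53 (SE, edgeR adjusted p = 1). The value of Cxcl3 is uncertain for another reason. Of the 50-base words in Cxcl2 transcripts 5.84% also occur in Cxcl3. Of the words in Cxcl3 transcripts 3.51% occur in Cxcl2, and 4.24% occur in any of 38 other genes, Cxcl2 included. The 92 counts of Cxcl3 over all libraries are 0.527% of those of Cxcl2, so a small number of reads assigned to the wrong gene would change the level of Cxcl3. The sources used here do not state how reads that match several places were counted. No such word was shared for the 8 other members, and no exon of the 10 members overlapped an exon of another GENCODE M21 gene.

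**Figure D1:**
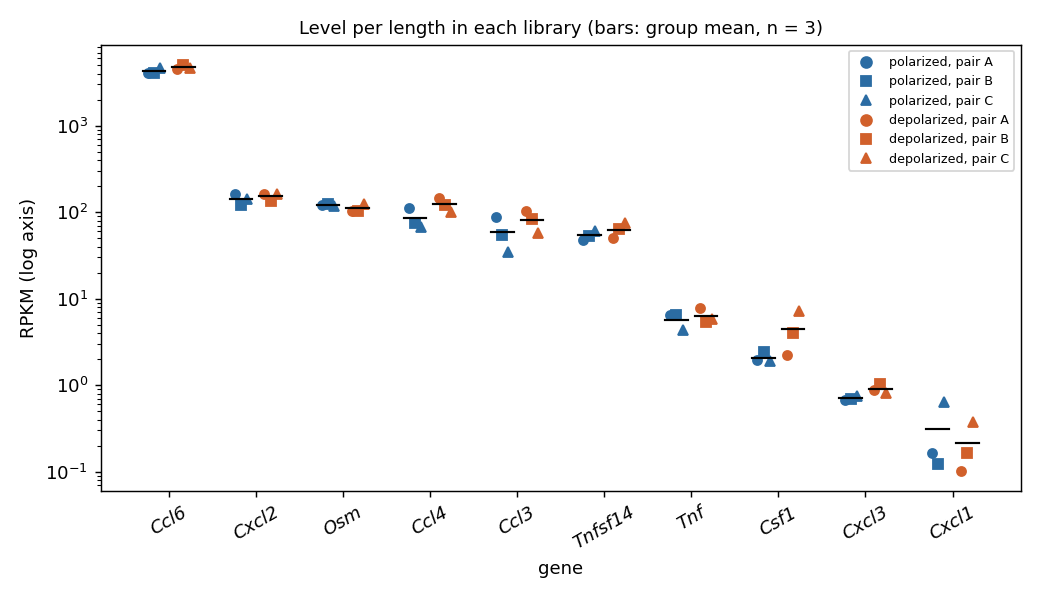
Level per length (RPKM, log axis) of the 10 genes in each of the 6 libraries, with bars for the mean of each group (n = 3). Ccl6 lies between 4058 and 5032 RPKM in every library, 6 genes down to Tnfsf14 lie above 34 RPKM, and Cxcl3 and Cxcl1 lie near or under 1 RPKM.

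The CC chemokines were led by Ccl6, a ligand of CCR1 that mouse neutrophils are known to express constitutively. Ccl6 (ENSMUSG00000018927, chromosome 11, 83587882 to 83593087) reached 7285, 7295 and 8353 CPM in polarized libraries, with 8167, 9033 and 8231 CPM in depolarized ones. The groups overlapped. It took 91.3% to 93.1% of all counts of the 10 genes in each library and ranked 14th of the 41388 genes by mean RPKM. The fitted log2 fold change was 0.08 ± 0.19 (SE, edgeR adjusted p = 1), with 0.23 and 0.27 in pairs A and B and -0.25 in pair C. Without pair C it was 0.25 (edgeR adjusted p = 0.0786).

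Ccl3 and Ccl4 encode the macrophage inflammatory proteins 1-alpha and 1-beta and lie next to each other on chromosome 11. Ccl3 (83647844 to 83649355) had 67.5, 41.5 and 26.7 CPM in polarized libraries (pairs A to C) against 79.97, 63.1 and 43.5 CPM in depolarized ones. Pair A was highest and pair C lowest in both populations, and the groups overlapped although the depolarized library was higher within each pair. The TMM-scaled log2 differences were 0.31, 0.57 and 0.48, for a fitted value of 0.45 ± 0.18 (SE, edgeR adjusted p = 0.589).

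Ccl4 (83662584 to 83664683) followed the same order, with 73.6, 49.85 and 44.1 CPM in polarized libraries against 97.3, 79.6 and 66.2 CPM in depolarized ones. The lowest depolarized value (pair C) lay under the highest polarized one (pair A). Within the pairs the log2 difference was 0.47, 0.64 and 0.36, for a fitted log2 fold change of 0.49 ± 0.17 (SE, edgeR adjusted p = 0.482). Over the 6 libraries, which share their pair and their scaling, the log2 CPM of Ccl3 and Ccl4 had a Pearson correlation of 0.92, the highest among the 36 pairs of tested members, given as a description. The ratio of Ccl4 to Ccl3 per length was 1.27 to 1.92 in polarized and 1.41 to 1.77 in depolarized libraries.

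Calls for both genes depended on the pairs in the fit. Without pair C, Ccl3 (0.43, edgeR adjusted p = 0.00917) and Ccl4 (0.55, edgeR adjusted p = 0.00036) were called. That fit called 500 genes higher and 518 lower of 10102 tested and rests on fewer residual degrees of freedom. Its p-values for these genes were the normal tail of the log2 fold change over its SE. In the fit on 3 pairs the same ratio gives a larger p. Without the pairs as a block, the log2 fold changes were 0.42 ± 0.29 (SE) for Ccl3 and 0.49 ± 0.22 (SE) for Ccl4, neither of them called.

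**Figure D2:**
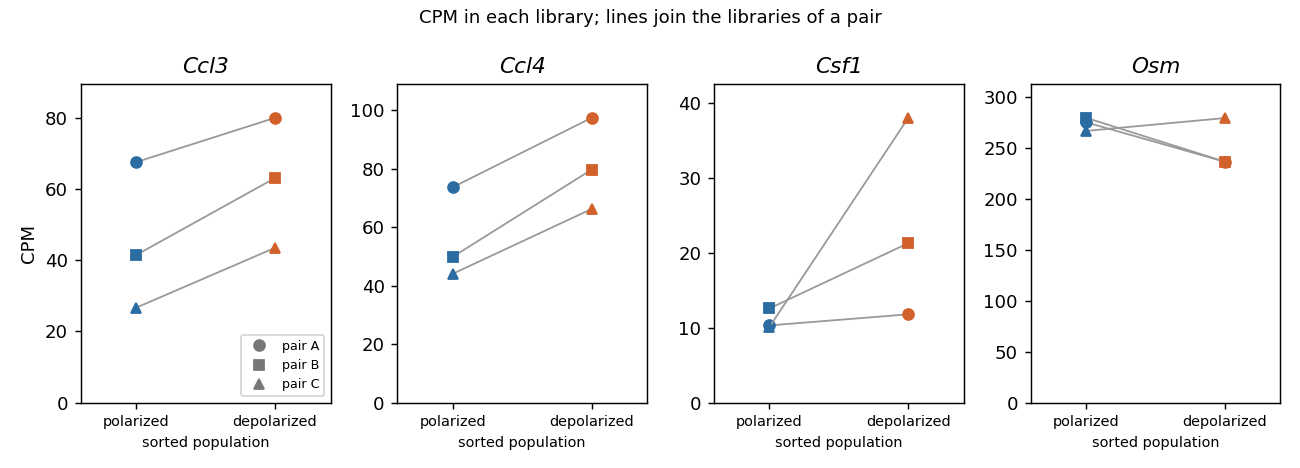
CPM of Ccl3, Ccl4, Csf1 and Osm in each library (vertical axes start at 0), with lines that join the libraries of pairs A, B and C. Ccl3 and Ccl4 go up within each of the 3 pairs while the groups overlap, the slope of Csf1 differs between pairs, and Osm is lower in depolarized cells in pairs A and B but not in pair C on this scale.

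Csf1 encodes macrophage colony-stimulating factor, the ligand of CSF1R that keeps monocytes and macrophages alive. The gene (ENSMUSG00000014599, chromosome 3, 107741048 to 107760469) held 10.3, 12.6 and 10.1 CPM in polarized libraries against 11.8, 21.3 and 37.98 CPM in depolarized ones. The polarized libraries lay close together, whereas the depolarized ones spread over more than a 3-fold range. The pair differences on the TMM scale were 0.25, 0.72 and 1.68, largest in pair C, and the fitted log2 fold change was 0.89 ± 0.25 (SE, edgeR adjusted p = 0.247). Leaving out pair C gave 0.49 (edgeR adjusted p = 0.0790), and leaving out pair A gave 1.21, which was called (edgeR adjusted p = 0.0248). Csf1 was also called when no filter on low counts was applied (0.90 ± 0.24, SE, edgeR adjusted p = 0.0246), with an estimate close to that of the main fit. In these alternative fits p was again the normal tail of the log2 fold change over its SE. The fit without a filter called 50 genes higher and 96 lower of 21979 tested. The fit without pair A called 25 higher and 74 lower of 10045. In TMM-scaled CPM the depolarized libraries of Csf1 all lay above the polarized ones, as did 4.59% of tested genes, while in plain CPM the groups overlapped.

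Osm encodes oncostatin M, a cytokine of the interleukin-6 family that activated neutrophils release. Alone among the 9 tested members it had a fitted value below 0. Osm (ENSMUSG00000058755, chromosome 11, 4236420 to 4241026) lay at 275, 279.8 and 267 CPM in polarized libraries against 237, 237 and 279.6 CPM in depolarized ones, with overlap through pair C. On the TMM scale it was lower in 3 of 3 pairs, with log2 differences of -0.16, -0.28 and -0.16, but in plain CPM pair C was higher by 0.07. The fitted log2 fold change was -0.20 ± 0.17 (SE, edgeR adjusted p = 1), and -0.22 without pair C.

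The TNF superfamily members Tnf and Tnfsf14 were present at unequal levels. Tnf, the gene of tumour necrosis factor (ENSMUSG00000024401, chromosome 17, 35199381 to 35202007), had 10.5, 10.5 and 7.04 CPM in polarized libraries against 12.7, 8.86 and 9.52 CPM in depolarized ones. It was higher in depolarized cells in pairs A and C and lower in pair B, with a fitted log2 fold change of 0.09 ± 0.24 (SE, edgeR adjusted p = 1). Tnfsf14 encodes LIGHT, a ligand of the lymphotoxin beta receptor and of HVEM (Tnfrsf14). Tnfsf14 (ENSMUSG00000005824, chromosome 17, 57189492 to 57194189) had 89.4, 99.2 and 112 CPM in polarized libraries against 93.5, 119.9 and 138 CPM in depolarized ones, and the groups overlapped. Pairs differed by 0.13, 0.23 and 0.08 (log2), all in the same direction, and the fitted log2 fold change was 0.15 ± 0.17 (SE, edgeR adjusted p = 1).

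By mean RPKM over the 6 libraries the order was Ccl6 (4491), Cxcl2 (147), Osm (116), Ccl4 (104), Ccl3 (70.1), Tnfsf14 (58.4), Tnf (6.01), Csf1 (3.29), Cxcl3 (0.809) and Cxcl1 (0.261). The ranges over libraries did not overlap between Ccl6 and Cxcl2, where the mean differed 30.6-fold, between Tnfsf14 and Tnf (9.72-fold), between Csf1 and Cxcl3 (4.07-fold), and between Cxcl3 and Cxcl1 (3.10-fold). Neighbours from Cxcl2 to Tnfsf14 had overlapping ranges, and so did Tnf and Csf1. Within single libraries Cxcl2 exceeded Osm in 5 of 6 and Ccl4 exceeded Ccl3 in 6 of 6.

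Across the 9 tested genes, 8 had a fitted log2 fold change above 0, the median was 0.15 and the range was -0.20 to 0.89, while the median over all 9971 tested genes was -0.0022. Of the 9, 4 (Ccl3, Ccl4, Csf1 and Tnfsf14) were higher in all 3 pairs on the TMM scale, against 12.9% of tested genes, and 1 (Osm) was lower in all 3, against 12.1%. In plain CPM, 5 were higher in all 3 pairs (these 4 and Cxcl3), against 18.3% of tested genes, and 0 were lower in all 3, against 8.91%. Of the 9, 3 (Ccl3, Ccl4 and Csf1) had an unadjusted p under 0.05, against 6.58% of tested genes. These counts describe genes that were chosen with earlier results of these data known and share libraries.

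**Figure D3:**
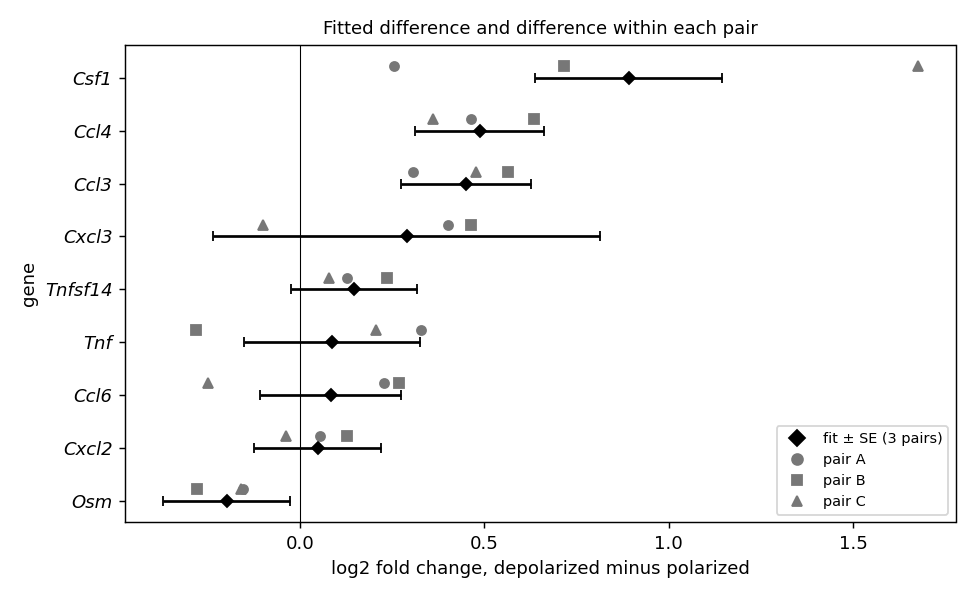
Log2 fold change (depolarized minus polarized) of the 9 tested genes, with the fit and its standard error in black and the TMM-scaled difference within each pair in grey. Csf1, Ccl4 and Ccl3 lie farthest above 0, at 0.89, 0.49 and 0.45, the pairs of Csf1 spread from 0.25 to 1.68, and Osm lies below 0 in every pair.

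Beyond these members few other chemokines were detected. Of 14 other CXC, CX3C and XC chemokine genes 1 was tested, the interferon-inducible Cxcl10 (log2 fold change -0.03), and 3 had 0 counts in all libraries (Cxcl13, Cxcl14 and Cx3cl1). Summed, they reached 1.996 to 6.07 CPM when polarized and 1.13 to 11.4 CPM when depolarized. The platelet chemokine genes Pf4 and Ppbp followed Cxcl10 in level, at 0.707 and 0.174 RPKM. A count of 0 over a group allows up to 0.0536 CPM (polarized) or 0.0531 CPM (depolarized). Of 18 other CC chemokine genes 4 were tested, 0 were called and 8 had no count. Ccl9, a neighbour and relative of Ccl6, led them with 15.7 ± 3.43 CPM (polarized) and 21.9 ± 3.99 CPM (depolarized; SD, n = 3), a log2 fold change of 0.42 ± 0.21 (SE, edgeR adjusted p = 0.806). The monocyte attractant gene Ccl2 had 0.388 ± 0.292 CPM (polarized) and 1.15 ± 0.843 CPM (depolarized; SD, n = 3). It was higher in 3 of 3 pairs (edgeR adjusted p = 0.550), and the T cell attractant gene Ccl5 was at 0.909 RPKM.

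Among 34 other cytokine and growth factor genes 11 were tested and 0 were called, with a median of 0.09, and 12 had 0 counts, among them Il6, Il17a, Csf2 and Ifng. The most abundant per length were Il1b, Il1rn and Ebi3, at 436, 304 and 109 RPKM. Il1b, the gene of interleukin-1 beta, had 762, 588 and 601 CPM in polarized libraries against 1004, 953 and 1086 CPM in depolarized ones. The depolarized libraries of Il1b all lay above the polarized ones, as did 7.28% of tested genes in CPM and 4.59% in TMM-scaled CPM. The log2 fold change was 0.58 ± 0.18 (SE, edgeR adjusted p = 0.317). Il1rn, the gene of its receptor antagonist, showed a change of 0.09 ± 0.19 (log2, SE), and Ebi3, a cytokine subunit, showed 0.02 ± 0.17 (SE). Of 15 other TNF superfamily ligands 3 were tested and 0 called. Tnfsf13b, the gene of the B cell survival factor BAFF, was the highest at 37.0 RPKM and had a log2 fold change of -0.05. Ltb, the gene of lymphotoxin beta, had 0.87 ± 0.45 (SE) with a pair C difference of 3.11, and Tnfsf9, the gene of the CD137 ligand, had -0.14.

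Receptors of these ligands were measured in the same cells. Of 15 receptor genes 10 were tested and 0 were called, all 10 were fitted above 0, and their median log2 fold change was 0.51 against -0.0022 over all tested genes. The CXCR2 gene, Cxcr2, was at 913 RPKM, Ccr1 at 676 RPKM and the TNF receptor gene Tnfrsf1a at 119 RPKM, with log2 fold changes of 0.11 ± 0.20, 0.15 ± 0.19 and 0.15 ± 0.17 (SE). Of the 10, 6 had an unadjusted p under 0.05, against 6.58% of all tested genes: Cxcr1, Ccr3, Tnfrsf1b, Lifr, Csf1r and Tnfrsf14, named after their values were seen. Csf1r, the receptor of the Csf1 product, had 106 ± 4.995 CPM (polarized) and 163 ± 5.74 CPM (depolarized; SD, n = 3), with a log2 fold change of 0.55 ± 0.17 (SE, edgeR adjusted p = 0.351). Lifr, whose product can pair with gp130 in receptors for leukemia inhibitory factor and oncostatin M, had 0.710 ± 0.237 CPM (polarized) and 2.52 ± 0.663 CPM (depolarized; SD, n = 3), with a log2 fold change of 1.74 ± 0.45 (SE, edgeR adjusted p = 0.180). Osmr, the gene of the oncostatin M receptor, and Il6st were likewise named after their values were seen. Osmr held 1 and 0 counts over the polarized and depolarized groups, and Il6st, the gene of gp130, held 1 and 4.

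Of 28 transcription factor and inhibitor genes of the NF-kB, AP-1 and NFAT routes 27 were tested, 0 were called and 22 were fitted above 0, with a median of 0.13. The AP-1 gene Fos was the most abundant at 781 RPKM (log2 fold change 0.14 ± 0.18, SE). The NF-kB inhibitor gene Nfkbia was at 64.9 RPKM with 0.02 ± 0.17 (SE), and the AP-1 gene Fosl2 was at 51.2 RPKM with -0.10 ± 0.19 (SE). Of 15 genes of cytokine mRNA decay, stability and release 15 were tested, 0 were called and 4 were above 0, with a median of -0.05. Zfp36, the gene of tristetraprolin, was at 824 RPKM (0.06 ± 0.18, SE), the phosphatase gene Dusp1 at 121 RPKM (0.11 ± 0.20, SE) and the p38 kinase gene Mapk14 at 49.1 RPKM (-0.13 ± 0.18, SE). Over the 7 lists of related genes, edgeR and DESeq2 with the block each called 0 of the 71 tested genes. Over all 9971 tested genes edgeR called 0.321%, and DESeq2 called 16 higher and 23 lower. At such rates 0 calls among 71 genes says little about these lists. Outside the receptors, the unadjusted p was under 0.05 for 1 CC chemokine, 1 cytokine and 3 transcription factor genes. These 3, named after their values were seen, were Atf3, Egr1 and Egr2. Their log2 fold changes were 0.83 ± 0.20, 0.72 ± 0.25 and 0.87 ± 0.33 (SE, edgeR adjusted p = 0.133, 0.447 and 0.550). Each was higher in 3 of 3 pairs, as were 12.9% of all tested genes on the TMM scale.

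**Figure D4:**
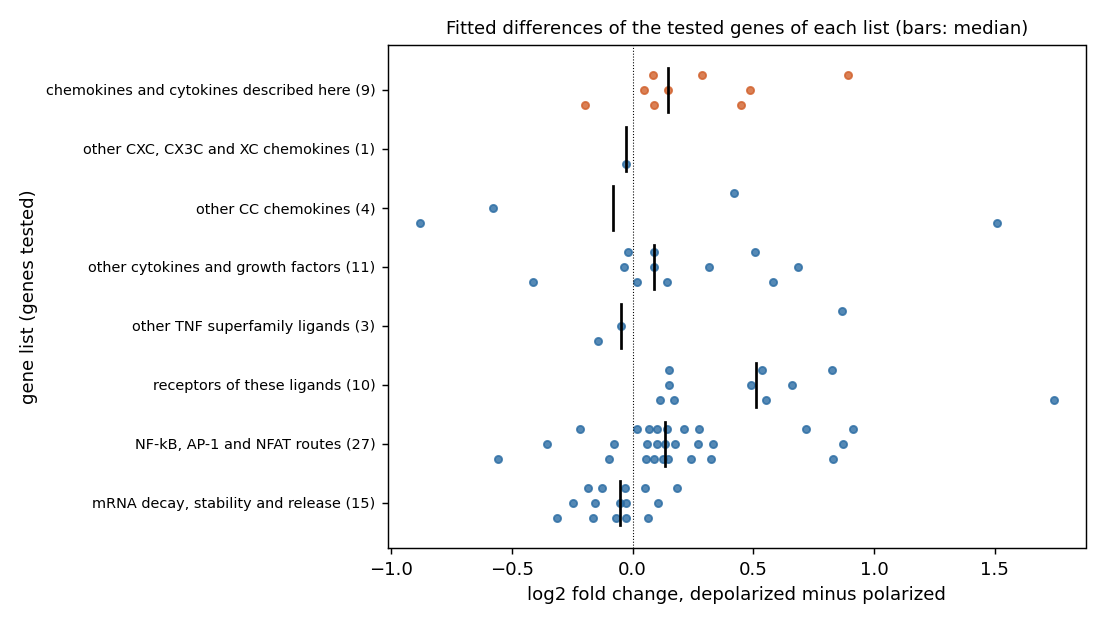
Log2 fold changes (depolarized minus polarized) of the tested genes in each list, 1 point per gene with vertical offsets for legibility, a bar for the median and the number tested in brackets. All 10 receptor genes lie above 0 with a median of 0.51, while the median of the 9 chemokine and cytokine genes is 0.15 and those of the other 6 lists lie between -0.08 and 0.13.

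Other leukocytes can also express Ccl3, Ccl4 and Csf1, so markers of those cells are given beside these genes. Of 10 monocyte markers 6 were tested and 2 were above 0, with sums of 938 to 1249.7 CPM (polarized) and 874 to 962 CPM (depolarized), most of it Ly6c2 (915 ± 140 and 681 ± 46.5 CPM, SD, n = 3), with Csf1r given above. The unadjusted p was under 0.05 for 5 of these 6, in both directions. Ly6c2, Ccr2 and Irf8 had log2 fold changes of -0.48, -3.22 and -2.19, each lower in 3 of 3 pairs on the TMM scale. Csf1r and Ctss had 0.55 and 0.54, each higher in 3 of 3 pairs. Ccr2 was at 1.38 ± 0.228 and 0.194 ± 0.294 CPM, and Ctss, the gene of the protease cathepsin S, at 51.1 ± 19.7 and 79.97 ± 40.1 CPM. Of 12 macrophage markers 10 were tested and 2 were above 0, with sums of 319.7 to 332 and 377 to 431 CPM, chiefly Cd68 (211 ± 14.5 and 275 ± 11.6 CPM) and Adgre1 (78.4 ± 22.6 and 113 ± 14.7 CPM). The unadjusted p was under 0.05 for 4 of these 10, namely Adgre1 (log2 fold change 0.49), C1qa (-1.10), C1qb (-1.40) and Vcam1 (-1.71), and C1qa was at 1.21 ± 0.145 and 0.589 ± 0.0860 CPM. Of 12 T and NK cell markers 3 were tested, 2 were above 0 and 1, Nkg7, was called lower (log2 fold change -4.65, edgeR adjusted p = 3.21e-05), with sums of 24.3 to 29.4 and 16.98 to 23.4 CPM, chiefly Cd3d (17.3 ± 2.61 and 18.2 ± 3.77 CPM). Of 9 dendritic cell markers 4 were tested and 2 were above 0, with sums of 13.9 to 18.1 and 21.8 to 40.2 CPM, chiefly Itgax (10.2 ± 3.71 and 21.9 ± 5.50 CPM) and Bst2 (3.57 ± 1.82 and 4.00 ± 3.65 CPM). The unadjusted p was under 0.05 for 1 of these 4, Itgax, which was higher in 3 of 3 pairs (log2 fold change 1.06, edgeR adjusted p = 0.133). Bst2 had -0.13. Of 9 basophil and mast cell markers 1 was tested, Hdc (984 ± 273 and 1070.2 ± 231 CPM), next in level was Prss34 (0.0517 ± 0.0896 and 0.840 ± 0.988 CPM), and the others were each under 1 CPM in both group means. Eosinophil markers summed to 52.1 to 496 CPM (polarized) and 61.3 to 211 CPM (depolarized), chiefly Prg2 and Ear2. Of 9 in the list 8 were tested, 3 were above 0 and 0 were called. The unadjusted p was under 0.05 for 6 of these 8, in both directions, against 6.58% of all tested genes. Siglecf and Ccr3, the latter also among the receptors above, had log2 fold changes of 0.59 and 0.66. Epx, Prg3, Prg2 and Ear2 had -2.17, -1.77, -1.37 and -0.59. The part of such cells in the differences of Ccl3, Ccl4 and Csf1 was not tested.

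Genes whose profile was most like that of the 3 most abundant members were found by Pearson correlation of log2 CPM over the 6 libraries among 4795 other genes with a mean of at least 10 CPM, as a description only. They were Ostc and Wars for Ccl6 (r of 0.99 and 0.98), Gm26916 and Uchl5 for Cxcl2 (0.998 and 0.995), and Cgrrf1 and Cadps2 for Osm (0.96 and 0.95). The members themselves ranged over 0.46, 0.54 and 0.48 on the log2 scale, and 133, 98 and 11 genes had r over 0.9 with Ccl6, Cxcl2 and Osm.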

How the data were processed

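The 6 mRNA libraries, 3 per sorted population, were analysed. The authors deposited 1 table per library with raw gene counts (whole numbers, not normalized), CPM (counts scaled to the library total) and RPKM (CPM per kilobase of listed gene length), per the file headers. Both derived units were recomputed from the counts (largest CPM difference 4.8e-10). Per the submitters' processing notes the tools were bcl2fastq, STAR (2.0.4b), Subread and featureCounts (1.45) on GRCm38, with an ultra-low-input RNA kit per the labels' protocols. The sources used here do not state strand setting, treatment of multiply matching reads or annotation release.

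The tests used edgeR 4.0.16 (R 4.3.3): filterByExpr by group (9971 genes kept), TMM factors, quasi-likelihood F test with the pair as a block, Benjamini-Hochberg adjustment over all tested genes, threshold 0.05. A standard error is the absolute log2 fold change over root F. Pair differences are log2 CPM with prior count 2 on TMM-scaled library sizes. The code was tested on simulated data. Pairing rests on the series' design text. Deviations from group means correlated at 0.08, 0.27 and 0.03 within pairs A, B and C. Between libraries of different pairs the values ran from -0.22 to 0.13. The highest of these, polarized C with depolarized A, exceeded the values within pairs A and C. Libraries of a group differed by far more than counting noise (chi-square per degree of freedom 29.1 to 100.2). Symbols came from the reference table (40254 of 41388 identifiers).

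The members and lists were chosen with earlier results of these data known. Named were all 10 members, called list genes, the 3 list genes highest by RPKM, the top 2 genes by CPM of each marker list given (4 for neutrophils), and the 2 genes most like each of the 3 most abundant tested members. Outside this rule, and chosen after their values were seen, are Cxcr1, Ccr3, Tnfrsf1b, Tnfrsf14, Lifr, Osmr, Il6st, Atf3, Egr1, Egr2, Ccr2, Irf8, Ctss, C1qa, C1qb, Vcam1, Siglecf, Epx, Prg3 and the genes named for having 0 counts. Results of the marker lists not given beside a member: B and plasma cell, erythroid, megakaryocyte and platelet, and stroma and endothelium lists had 0 called genes each, the precursor list had 8 lower and the neutrophil list 2 lower (Camp and Ltf). Alternatives covered the block, scaling, filter, DESeq2 1.42.0, robust edgeR and leaving out each pair.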

Additional observations from a re-analysis of the deposited data

How the results depend on the processing

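No member was called with RLE or library-total scaling, the stricter filter (at least 1 CPM in all 6 libraries), robust edgeR, DESeq2 with the block, or the group alone without the block. Without a filter 1 member (Csf1, 0.90) and 3 of the other listed genes (Atf3, Lifr and Ltb) were called. Leaving out 1 pair called 0 to 2 members and 0 to 12 other listed genes. Over all genes the replicate block mattered: edgeR without it called 0 genes higher and 0 lower, with 511 at an unadjusted p under 0.05. With the block, library totals gave 0 higher and 6 lower, no filter 50 and 96, the stricter filter 5 and 3, and DESeq2 16 higher, against 8 and 24 in the results above. Leaving out a pair gave 9 to 500 higher and 36 to 518 lower. Signs reversed for Ccl6 without pair B (-0.0092) and for Tnf without pair A (-0.038). Leave-one-pair-out values ran from 0.39 to 0.52 for Ccl3, 0.41 to 0.55 for Ccl4, 0.49 to 1.21 for Csf1, -0.0092 to 0.25 for Ccl6 and -0.038 to 0.27 for Tnf. The cause of these changes was not tested. Mean CPM on TMM-scaled totals stayed within 1 SD of the plain value for 19 of 20 member and group pairs. The polarized mean of Osm moved to 281 CPM. Cxcl1 had no value outside the fit without a filter, and Cxcl3 none under the stricter filter. With 3 pairs and 0.147 to 0.177 CPM for 3 counts, differences in Cxcl1 and Cxcl3 are limited by depth.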
